A study of Mus musculus with 6 samples.

Results

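Bulk RNA-Seq of mouse GP (gastrocnemius and plantaris) muscle was examined for 8 genes of Schwann cells and myelin, the glial part of the nerve branches that run within muscle: Pmp22, Mbp, Prx, Mag, Sox10, Egr2, Cdh19 and Ngfr. They were chosen by symbol as genes of intramuscular nerve, and all 8 were found among the 24421 genes of the count tables and passed the expression filter, which left 14180 genes to test. By their labels, which the counts of Net39 contradict, the libraries came from 3 Ctrl mice with Net39 fl/fl and no Cre and 3 cKO mice with Net39 fl/fl and HSACreERT2. All 6 mice were males, received tamoxifen, and were 5 months of age, 3 months after tamoxifen. The floxed allele was made in B6C3F1 zygotes, and the paper mated the founders to C57BL/6N mice. The human skeletal actin promoter of this transgene drives CreERT2 in muscle fibers and not in satellite cells or the heart, so the deletion was designed for the fiber and not for the Schwann cell, whose transcripts reach the muscle library with those of every other cell of the tissue. Nothing in the labels states separate litters or dissection days, and p values measure the spread between these mice.

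Net39, the deleted gene, went against the labels. Its exon 1 lies between loxP sites, and the counts per gene do not separate the exons. Listed as Ppapdc3, it had 7.92, 7.75 and 5.93 CPM (counts scaled to library size with edgeR's TMM factors) in Ctrl-labelled libraries 1, 2 and 3 and 151, 113 and 138 CPM in cKO-labelled libraries 1, 2 and 3. Its log2 fold change, labelled cKO over labelled Ctrl, was 4.22 (SE 0.17, adjusted p = 0.000161, edgeR quasi-likelihood test with Benjamini-Hochberg adjustment). The libraries are therefore named by their labels throughout (Ctrl-labelled library 1 is also written Ctrl 1), and "lower in the cKO-labelled libraries" means lower where Net39 was high. Total counts were 33860001 to 38201728 in the Ctrl-labelled libraries and 39191239 to 48839910 in the cKO-labelled ones.

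Schwann cells ensheathe the axons of peripheral nerve, and the myelinating ones wrap a single axon segment in a compacted spiral of membrane. SOX10 keeps the lineage and, together with EGR2 (KROX20), switches on the genes of myelin, while neuregulin on the axon signals to ERBB2 and ERBB3 on the Schwann cell. NGFR, the low-affinity neurotrophin receptor p75, belongs to immature, nonmyelinating and repair Schwann cells. Several of these genes are also used elsewhere: Pmp22 is expressed by fibroblasts and other cells, and Egr2 is induced as an early response gene in lymphocytes and macrophages.

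The sequences shown first are promoter stretches of the 2 members whose change passed the test, Egr2 and Pmp22, and of Mag, because RefSeq (GRCm38.p6) lists several start sites for each and the deposited counts per gene do not separate them. RefSeq promoter windows of 250 bases before to 50 bases after a start site were found for 5 of the 8 genes, 14 windows in all, and entries for Mbp, Sox10 and Cdh19 were not used here. In Egr2, on the plus strand of chromosome 10, 4 of 5 windows held a CArG box, the motif that serum response factor binds, which 1.63% of 32851 mouse windows hold on either strand. The 4 windows hold 2 distinct boxes, 1 of them shared by 3 windows that overlap. Capitals mark the box in the stretches at chr10:67537484-67537513 and chr10:67537787-67537816, both in introns of the GENCODE M21 gene and upstream of internal RefSeq start sites.
Egr2, first CArG box: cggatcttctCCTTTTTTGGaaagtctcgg
Egr2, second CArG box: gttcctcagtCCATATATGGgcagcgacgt
Pmp22 has alternative promoters, 1 known for its use in myelinating Schwann cells and another for its use in many tissues. RefSeq gave 4 windows for Pmp22, and which of them match these promoters was not examined. The 30 bases before the first 2 starts lie on the plus strand at chr11:63128952-63128981, just upstream of the gene, and at chr11:63131427-63131456, in an intron. No capitals are used, since no motif is compared.
Pmp22, before the first start: ataaactggaaagacgcctaggacagcttc
Pmp22, before the second start: ccgccctcccgcacacgctgaccctgggac
In Mag, 2 of 3 windows, which overlap, held 1 and the same SOX core ACAAAG, searched on both strands and held by 18.7% of all windows. It is read here on the opposite strand, as the capitals, in a stretch upstream of the gene on the minus strand at chr7:30914972-30915001.
Mag, SOX core: tgacaagggcccCTTTGTgcccccctcccc
The EGR core GCGNGGGCG, held by 5.55% of all windows on either strand, was in 0 of the 14 member windows. These are letters found in windows, and no binding was measured.

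All 8 genes had a lower fitted level in the cKO-labelled libraries than in the Ctrl-labelled ones, and for 2 of them, Pmp22 and Egr2, the difference passed an adjusted p of 0.05. Among all genes tested, 51.7% had a log2 fold change below 0 and 11.8% passed as lower in the cKO-labelled libraries, so 2 of 8 members (25%) passed in that direction. None of the 8 passed as higher there (0 genes in edgeR, where 12.6% of all genes did, and 0 in the DESeq2 Wald test), and 4 of the 8, all lower, had an unadjusted p under 0.05, where 19.6% of all genes were lower at that limit and 19.2% higher. Egr2 was the one member past both an adjusted p of 0.05 and a fold change over 2, the limits that 3.92% of all genes passed as lower in the cKO-labelled libraries and 2.13% as higher. In either direction 24.4% of all genes had an adjusted p under 0.05. The median log2 fold change of the 8 genes was -0.59, against -0.015 over all genes tested. In whole muscle, fewer Schwann cells and less RNA per Schwann cell cannot be told apart. Nor can either be told from a change in other cells that express these genes or in the share of fiber RNA.

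**Figure D1:**
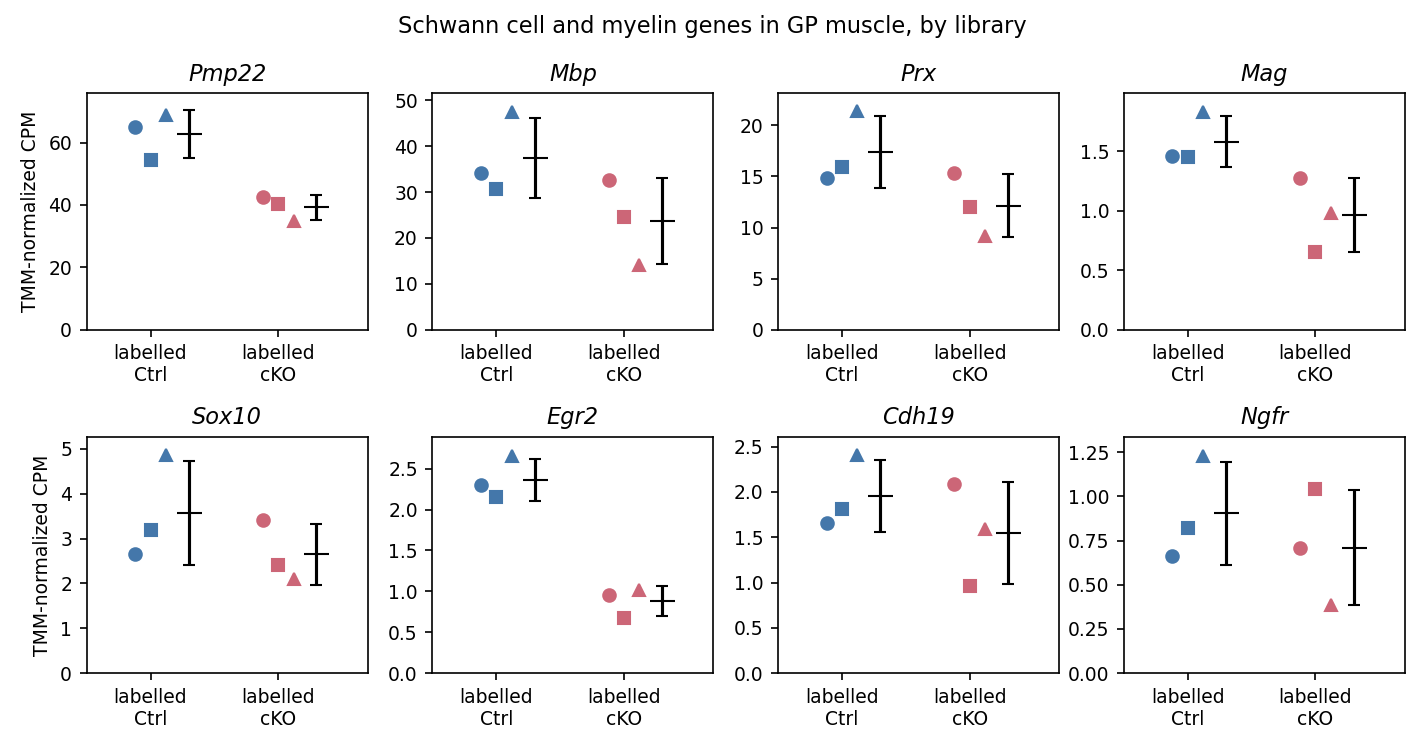
Each panel plots 1 gene, with TMM-normalized CPM on a linear vertical axis from 0, 1 point per library (circle, square and triangle for mouse 1, 2 and 3) and the mean with its SD beside each labelled group. For Pmp22, Mag and Egr2 the 3 cKO-labelled libraries all lie below the 3 labelled Ctrl, and Ctrl-labelled library 3 is the highest of the 6 in all 8 panels.

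Pmp22, a tetraspan protein of compact myelin, was the most abundant member. It had 65.0, 54.3 and 69.0 CPM in Ctrl-labelled libraries 1, 2 and 3 and 42.7, 40.2 and 34.9 CPM in cKO-labelled libraries 1, 2 and 3. Every cKO-labelled library lay below every Ctrl-labelled library, and neither group spread by more than 1.27-fold. The log2 fold change was -0.68 (SE 0.12, 95% CI -0.95 to -0.40, adjusted p = 0.00869, edgeR), a 1.6-fold higher level in the Ctrl-labelled libraries. A two-sided exact permutation test of CPM gave p = 0.1, which no design of 3 against 3 can go below. The gene spans chr11:63128982-63159547 (GENCODE M21, plus strand), and its counts, from 1513 to 2544 in a library, add the transcripts of all its promoters.

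Mbp encodes myelin basic protein, which holds the cytoplasmic faces of the myelin membrane together. Its level was 34.2, 30.7 and 47.4 CPM in Ctrl-labelled libraries 1, 2 and 3 and 32.7, 24.5 and 14.0 CPM in the cKO-labelled ones. The groups overlapped, as cKO-labelled library 1 was above Ctrl 2, while cKO 3 had the lowest level of the 6. With a 2.33-fold spread among the cKO-labelled libraries, the log2 fold change of -0.66 (SE 0.30, 95% CI -1.37 to 0.05) did not pass (adjusted p = 0.152, edgeR). This fold change was close in size to that of Pmp22, with an interval that reached past 0.

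Prx encodes periaxin, which links the outer membrane of the myelinating Schwann cell to its basal lamina. It had 14.8, 15.9 and 21.4 CPM in the Ctrl-labelled libraries and 15.3, 12 and 9.13 CPM in the cKO-labelled ones. The order of the libraries was nearly that of Mbp, with Ctrl 3 highest, cKO 3 lowest and cKO 1 within the range of the Ctrl-labelled group. The log2 fold change was -0.52 (SE 0.21, 95% CI -1.02 to -0.01, adjusted p = 0.123, edgeR). Prx lies on the plus strand at chr7:27499324-27520214. It shares 300 exon bases with an antisense gene, Gm15541, and since the use of strand in counting is not stated, reads over those bases cannot be assigned to one of them.

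Mag encodes an adhesion protein of the inner myelin layer that faces the axon. It was counted 25 to 67 times per library, with 1.46, 1.45 and 1.83 CPM in the Ctrl-labelled libraries and 1.27, 0.649 and 0.977 CPM in the cKO-labelled ones. The groups did not overlap, as also in Pmp22 and Egr2, so that 3 of the 8 members were separated in this direction where 21.9% of all genes were, and 0 in the other, where 22% were. The log2 fold change was -0.71 (SE 0.28, 95% CI -1.37 to -0.05) and did not pass (adjusted p = 0.107, edgeR). Mag lies on the minus strand at chr7:30899176-30914873.

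Of the 2 transcription factors, Sox10 was detected at 2.66, 3.19 and 4.87 CPM in the Ctrl-labelled libraries and at 3.41, 2.42 and 2.11 CPM in the cKO-labelled ones. The ranges overlapped, and the highest and lowest libraries of the Ctrl-labelled group differed by 1.83-fold. The log2 fold change of Sox10 was -0.43 (SE 0.28, 95% CI -1.10 to 0.23, adjusted p = 0.297, edgeR). Sox10, at chr15:79154908-79165240 on the minus strand, marks the whole Schwann lineage, myelinating or not, and its level was the more variable of these 2 within the Ctrl-labelled group.

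Egr2, the regulator that starts and maintains myelination, changed most among the 8. It had 2.30, 2.15 and 2.65 CPM in Ctrl-labelled libraries 1, 2 and 3 and 0.960, 0.675 and 1.02 CPM in the cKO-labelled ones, from 89 to 97 counts and 26 to 45 counts. The groups lay well apart, with the lowest Ctrl-labelled library above the highest labelled cKO, and the spread within a group was at most 1.51-fold. The log2 fold change was -1.41 (SE 0.22, 95% CI -1.93 to -0.89, adjusted p = 0.00687, edgeR), or 2.66-fold higher in the Ctrl-labelled libraries. The gene spans chr10:67535475-67542188, plus strand, with the intronic CArG boxes shown above.

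Cdh19, an adhesion protein of the cadherin family that marks Schwann cells and their precursors, had 1.66, 1.81 and 2.41 CPM in the Ctrl-labelled libraries and 2.09, 0.961 and 1.59 CPM in the cKO-labelled ones. The groups overlapped (log2 fold change -0.34, SE 0.31, 95% CI -1.06 to 0.38, adjusted p = 0.449, edgeR). Ngfr had the lowest mean CPM of the members in both groups, with 17 to 45 counts per library, although in cKO 2 it was above Mag, Egr2 and Cdh19. Its level was 0.664, 0.820 and 1.23 CPM in the Ctrl-labelled libraries and 0.706, 1.04 and 0.386 CPM in the cKO-labelled ones. Here too the values were interleaved (log2 fold change -0.35, SE 0.41, 95% CI -1.31 to 0.61, adjusted p = 0.561, edgeR), and the interval includes a change in either direction of more than 1.5-fold. Both genes lie on the minus strand, Cdh19 at chr1:110888326-110977584 and Ngfr at chr11:95568818-95587735.

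Levels of different genes can be compared only per length of transcript. Divided by the length of merged exons in kilobases (GENCODE M21), Pmp22 had 29.1 ± 3.53 CPM per kilobase (SD, n = 3) in the Ctrl-labelled libraries and 18.2 ± 1.85 in the cKO-labelled ones. Mbp followed with 4.61 ± 1.08 and 2.92 ± 1.15 CPM per kilobase, and Prx with 3.11 ± 0.637 and 2.18 ± 0.555. Mbp was above Prx in each of the 6 libraries, although the ranges of these neighbors overlapped in both groups. Sox10 came next with 1.28 ± 0.415 and 0.952 ± 0.245 CPM per kilobase. In the Ctrl-labelled libraries, Egr2 (0.743 ± 0.0814) and Mag (0.647 ± 0.0901) were neighbors whose values overlapped, above Cdh19 (0.50 ± 0.101) and Ngfr (0.263 ± 0.0849). In the cKO-labelled ones, Mag (0.396 ± 0.127) and Cdh19 (0.395 ± 0.144) were level and stood above Egr2 (0.278 ± 0.0581) and Ngfr (0.206 ± 0.0947). Egr2 was thus above both Mag and Cdh19 under the Ctrl label, where its range overlapped that of Mag and not that of Cdh19, and below both under the cKO label, where its range overlapped those of Mag, Cdh19 and Ngfr.

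The exact permutation p of CPM was 0.1 for Mag and Egr2, as for Pmp22, and between 0.2 and 0.5 for the other 5 members. The members varied together in part. The Ctrl-labelled library 3 had the highest level of all 6 libraries for 8 of the 8 genes, and the lowest cKO-labelled library was cKO 3 for 5 genes and cKO 2 for 3. Without Ctrl-labelled library 3 all 8 fold changes came nearer to 0 and their median was -0.39. The log2 fold change of Mbp was between -0.97 and -0.40 over the 6 fits that each left out 1 library, that of Prx between -0.73 and -0.34, that of Mag between -0.96 and -0.51 and that of Sox10 between -0.66 and -0.14. Cdh19 lay between -0.62 (without cKO 1) and -0.11 (without cKO 2), and Ngfr between -0.75 (without cKO 2) and -0.06 (without cKO 3). Pmp22 stayed between -0.77 and -0.60 (highest adjusted p = 0.0362, edgeR) and Egr2 between -1.55 and -1.26 (highest adjusted p = 0.0269), so both passed in each of the 6 fits. Scaling by total counts in place of TMM moved the median of all genes tested to -0.27 and that of the members to -0.85, which is -0.57 and -0.58 relative to all genes with TMM and with total counts. Mbp (adjusted p = 0.0477), Prx (0.0278) and Mag (0.0279) then also passed in edgeR, so that 5 members were lower in the cKO-labelled libraries, in a fit where 28.7% of all genes were lower and 4.75% higher.

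**Figure D2:**
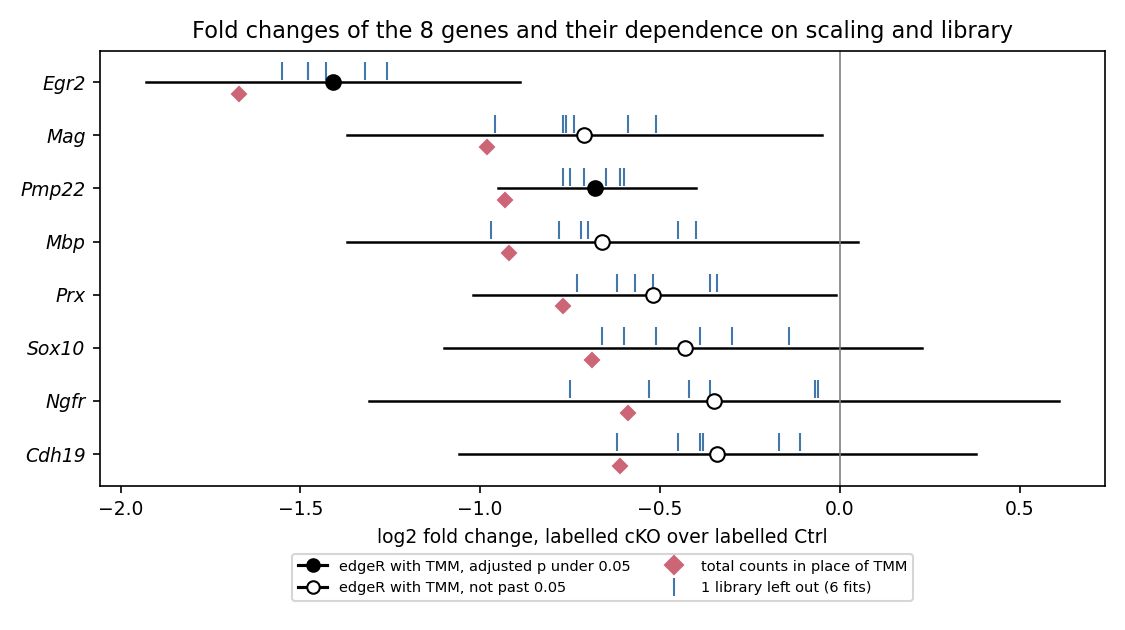
Points give the log2 fold change, labelled cKO over labelled Ctrl, of each of the 8 genes with its 95% CI (edgeR with TMM, filled where the adjusted p is under 0.05), diamonds the same with total counts, and ticks the 6 fits that left out 1 library. All points, diamonds and ticks lie below 0, the intervals of Mbp, Sox10, Ngfr and Cdh19 reach above 0, and Egr2 lies farthest out at -1.41.

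Ratios of counts within a library do not depend on the scaling of libraries. Taken relative to Sox10, which marks the lineage, Egr2 had 0.865, 0.674 and 0.545 counts per Sox10 count in the Ctrl-labelled libraries and 0.281, 0.280 and 0.484 in the cKO-labelled ones. These values did not overlap, with a difference of -1.01 in mean log2 ratio (exact permutation test, two-sided, p = 0.1, and 0.56 adjusted over 7 ratios). For Pmp22 the ratio was 24.5, 17.0 and 14.2 in the Ctrl-labelled libraries and 12.5, 16.6 and 16.5 in the cKO-labelled ones, a difference of -0.26 with overlapping values (exact permutation test, p = 0.4). Mbp (-0.31), Mag (-0.33) and Prx (-0.11) overlapped as well, each with an exact p of 0.4. With 1 library left out, these differences ran from -0.44 to -0.05 for Pmp22 and from -0.42 to -0.12 for Mbp, nearest to 0 without Ctrl 1 and without cKO 3, from -0.51 to -0.13 for Mag, nearest to 0 without cKO 2, and from -0.20 to -0.03 for Prx, nearest to 0 without Ctrl 1. The differences of Cdh19 (0.02) and Ngfr (0.01) were near 0 (exact p = 1). Measured per Sox10 count, 1 of the 7 genes, Egr2, had groups that were separated, and over all genes tested 2.67% were separated as lower and 18.5% as higher in the cKO-labelled libraries on this scale. Pmp22, which passed the test of its own level, was not separated on this scale, and Sox10 was itself lower in 2 of the 3 cKO-labelled libraries than in any Ctrl-labelled one.

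**Figure D3:**
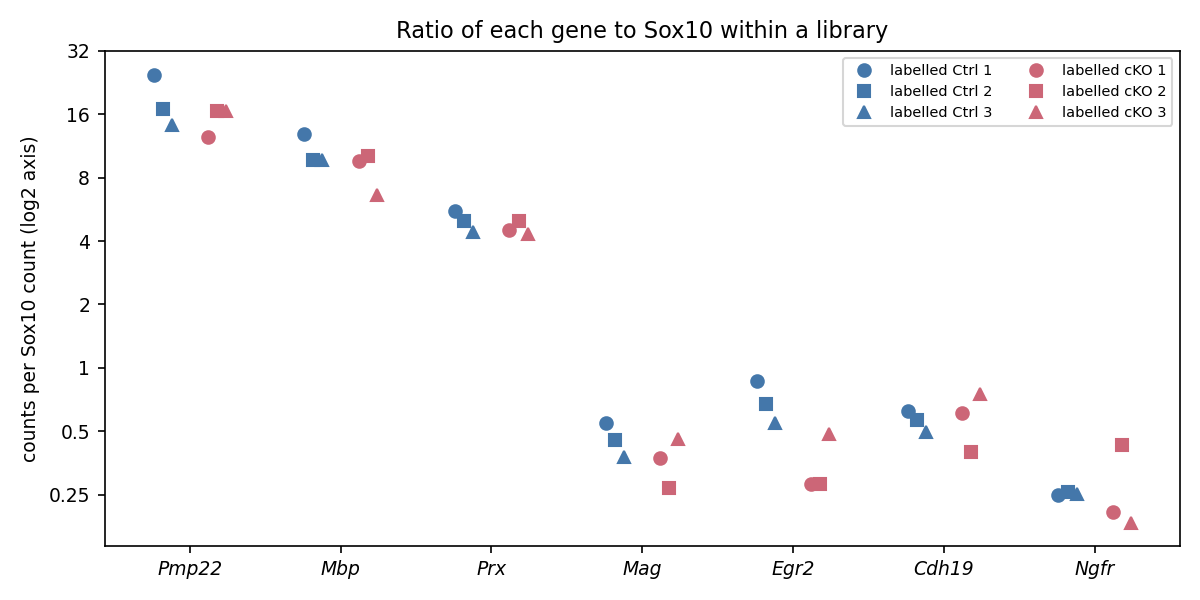
Counts of each gene per count of Sox10 in the same library are plotted on a log2 axis, 1 point per library, blue for Ctrl-labelled libraries and red for the cKO-labelled ones. The points of Egr2 separate, from 0.545 to 0.865 against 0.280 to 0.484, whereas those of the other 6 genes overlap.

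The other genes of nerve were followed through 7 lists, of Schwann cells, myelin, their signals, axons and nerve sheath. Of 90 genes on these lists 69 were tested, 21 (30.4%) were lower in the cKO-labelled libraries and 1 (1.45%) was higher, against 11.8% and 12.6% of all genes. At an unadjusted p under 0.05 there were 29 lower and 4 higher, and the median log2 fold change of the 69 was -0.37. The count of 21 fell in several fits that left out 1 library, in which fewer of all genes passed as well. It was 6 (8.7%) without Ctrl-labelled library 1, 11 (15.9%) without Ctrl 2, 8 (11.6%) without cKO 1 and 8 (11.6%) without cKO 3. In the same order, 5.63%, 6.57%, 6.18% and 5.46% of all genes passed in that direction. Without Ctrl 3, 3 nerve-list genes were higher.

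Among 19 other genes of myelin proteins and lipids, 6 were lower in the cKO-labelled libraries, 0 were higher (also 0 with DESeq2), 18 had a log2 fold change below 0 and the median was -0.66. Gldn, the gliomedin that gathers sodium channels at the node of Ranvier, had 2.04, 4.51 and 5.44 CPM in the Ctrl-labelled libraries and 1.21, 0.779 and 0.682 CPM in the cKO-labelled ones (log2 fold change -2.17, SE 0.41, adjusted p = 0.0115, edgeR). Drp2, the dystrophin-related partner of periaxin, had 15.4, 14.4 and 18.4 CPM and 10.6, 9.09 and 6.25 CPM (-0.90, SE 0.20, adjusted p = 0.0189). In both genes every cKO-labelled library lay below every Ctrl-labelled library. Cd9 (-0.53), a tetraspanin of many cells, Ncmap (-0.94), a protein of noncompact myelin, Nfasc (-0.66), a cell adhesion protein of nodes, and Pmp2 (-1.34), a lipid-binding myelin protein, were lower too. The calls of Cd9 and Gldn held in each of the 6 fits that left out 1 library, that of Drp2 was lost without Ctrl 1 (adjusted p = 0.0563) and that of Nfasc in every one of them. Ncmap lost its call without Ctrl 1, Ctrl 2, cKO 1 or cKO 3, and Pmp2 kept it in the fit without Ctrl 3 alone. The count of 6 (31.6%, where 11.8% of all genes were lower) was 12 with total counts, where 28.7% of all genes were. It was 2 without Ctrl 1 and 3 without Ctrl 2, cKO 1 or cKO 3. Of all genes, 5.63%, 6.57%, 6.18% and 5.46% were lower in those fits, 10.6% without Ctrl 3 and 12.5% without cKO 2. These shares of all genes also stand beside the counts of lower genes given below. Cd9, Pmp2 and Cnp share exon bases with another annotated gene. Of the abundant genes on the list that did not pass, Mpp6 was at -0.19 (95% CI -0.42 to 0.03) and Cnp at 0.06 (95% CI -0.27 to 0.39), and both are expressed in other cells as well.

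Of the Schwann lineage genes and regulators 14 of 17 were tested, 3 were lower in the cKO-labelled libraries and 0 higher (also 0 with DESeq2), with a median of -0.28 (-0.16 without Ctrl 3). Nab2, a corepressor that binds EGR proteins, had 11.8, 10.9 and 12.9 CPM in the Ctrl-labelled libraries and 5.95, 8.65 and 6.14 CPM in the cKO-labelled ones (log2 fold change -0.78, SE 0.16, adjusted p = 0.0162, edgeR). Its relative Nab1 did not pass, at -0.16 (95% CI -0.43 to 0.12). Foxd3, a neural crest factor, was at -0.57 and Lgi4, a secreted Schwann cell protein needed for myelination, at -0.54. Of the abundant genes on the list, Itga6 was at 0.01 (95% CI -0.44 to 0.46) and Zeb2 at 0.06 (95% CI -0.19 to 0.32). Nab2 lost its call without Ctrl 1, cKO 1 or cKO 3 and Lgi4 in every fit that left out 1 library, while Foxd3 kept its call in the fit without cKO 2 alone, so that the count was 0 without Ctrl 1, cKO 1 or cKO 3 and 1 without Ctrl 2 or Ctrl 3, and 5 with total counts. Nab2, Foxd3, Zeb2 and Lgi4 share exon bases with other genes, Lgi4 with Fxyd3.

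Genes of immature and repair Schwann cells, the state that Ngfr stands for, did not move as one. Of 13 genes 8 were tested, 2 were lower in the cKO-labelled libraries, 0 were higher (also 0 with DESeq2) and the median was 0.01. Jun, the transcription factor of the repair state, had 264, 179 and 197 CPM in the Ctrl-labelled libraries and 209, 181 and 213 CPM in the cKO-labelled ones (log2 fold change -0.09, 95% CI -0.45 to 0.28, adjusted p = 0.714, edgeR). The 2 that were lower, Ncam1 (-1.97, SE 0.21) and L1cam (-0.68, SE 0.15), are adhesion molecules that axons also carry, and Ncam1 is found on muscle fibers and satellite cells too. The call of Ncam1 held in all 6 fits that left out 1 library, and that of L1cam was lost without Ctrl 1, Ctrl 2 or cKO 3. Gap43 (at most 14 counts in a library), Sox2 (at most 11), Gfap (at most 4), Shh (at most 3) and Olig1 (at most 1), named here after their values were seen, were too low to test.

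Ngfr is a receptor of the neurotrophins, and of 12 genes of this family 10 were tested, 2 lower and 1 higher in the cKO-labelled libraries, with a median of 0.21 (0.01 without cKO 2 and -0.03 with total counts). Ntf5, which encodes neurotrophin-4, was the single gene of the 7 lists that was higher there: 3.65, 3.86 and 3.39 CPM in the Ctrl-labelled libraries and 7.54, 8.31 and 7.02 CPM in the cKO-labelled ones (log2 fold change 1.07, SE 0.12, adjusted p = 0.00322, edgeR), a call that held whichever library was left out. Bdnf went the other way, with 4.11, 1.67 and 1.67 CPM and 0.677, 1.01 and 0.454 CPM (-1.80, SE 0.46, adjusted p = 0.0312), as did Maged1, an intracellular partner of NGFR that many tissues express (-0.99, SE 0.21, adjusted p = 0.0159). Both calls were lost without Ctrl 1, cKO 1 or cKO 3, with an adjusted p of up to 0.102 for Bdnf, which shares exon bases with an antisense gene. Ntf3 (0.56, 95% CI -0.11 to 1.24), Ntrk2 (0.34, 95% CI -0.17 to 0.86) and Sort1 (0.65, 95% CI 0.04 to 1.26) did not pass.

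Of 9 neuregulin and ErbB genes 6 were tested, 3 were lower in the cKO-labelled libraries, 0 higher (also 0 with DESeq2), and the median was -0.30. Erbb2, the signaling partner in the Schwann cell's neuregulin receptor, was lower (-0.50, SE 0.13, adjusted p = 0.0318, edgeR), and Erbb3, the partner that binds the ligand, was at -0.23 (95% CI -0.69 to 0.23, adjusted p = 0.416). Adam17, a protease that sheds neuregulin (-0.36), and Nrg2 (-1.31) were lower, while Nrg4 (0.43, 95% CI -0.41 to 1.28) and Bace1 (0.37, 95% CI 0.05 to 0.70), a protease that processes neuregulin, did not pass. None of the 3 calls was left without Ctrl 1, Ctrl 2, cKO 1 or cKO 3 (0 genes).

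The cell bodies of motor and sensory axons lie outside the muscle. Of 13 axon genes 5 were tested and 8 were too low, and Chat and Mnx1 were at 0 in every library. Uchl1, a neuronal deubiquitinase that denervated muscle fibers can also make, had 10.4, 22.2 and 10.8 CPM in the Ctrl-labelled libraries and 3.22, 2.29 and 2.48 CPM in the cKO-labelled ones (log2 fold change -2.45, SE 0.33, adjusted p = 0.00444, edgeR), a call held in all 6 fits that left out 1 library. Stmn2 was lower as well (-0.77, SE 0.23, adjusted p = 0.0470), a call kept in just 1 of those 6 fits, the one without cKO 2. The tubulin Tubb3 (-0.21), the neurofilament relative Prph (0.02) and the motor neuron factor Isl1 (0.79) did not pass. The median of these 5 genes, -0.21, moved with single libraries. It was -0.04 without Ctrl 1, 0.02 without Ctrl 3, -0.01 without cKO 1 and -0.14 without cKO 2, but -0.66 without Ctrl 2 and -0.63 without cKO 3. It was also -0.47 with total counts and -0.77 over the genes with at least 10 counts in every library.

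Among 8 genes of perineurium and endoneurium, the sheath around and between the nerve fibers, 3 were lower in the cKO-labelled libraries, 0 higher (also 0 with DESeq2), and the median was -0.71. Sox9 had 30.4, 22.3 and 20.0 CPM in the Ctrl-labelled libraries and 4.35, 3.53 and 3.93 CPM in the cKO-labelled ones (log2 fold change -2.62, SE 0.18, adjusted p = 0.000627, edgeR). Slc2a1, the glucose transporter of the perineurial barrier, was at -1.0 (SE 0.16) and Itgb4, an integrin of perineurium and of Schwann cells, at -0.76 (SE 0.18). These genes are not particular to nerve sheath, since other connective tissue, vessels and muscle fibers use them too. Sox9 and Slc2a1 held in every fit that left out 1 library, while Itgb4 did not pass without Ctrl 1, Ctrl 3 or cKO 1. Adam17, Erbb2, Bace1, Nrg4, Ncam1, L1cam, Jun, Sort1, Uchl1, Slc2a1 and Itgb4, like the genes marked above, share some exon bases with a neighboring or antisense gene. Etv1 (0.11), Cldn1 (-0.20) and Wif1 (1.36, 95% CI -0.24 to 2.96), whose highest level was in cKO 2, did not pass.

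**Figure D4:**
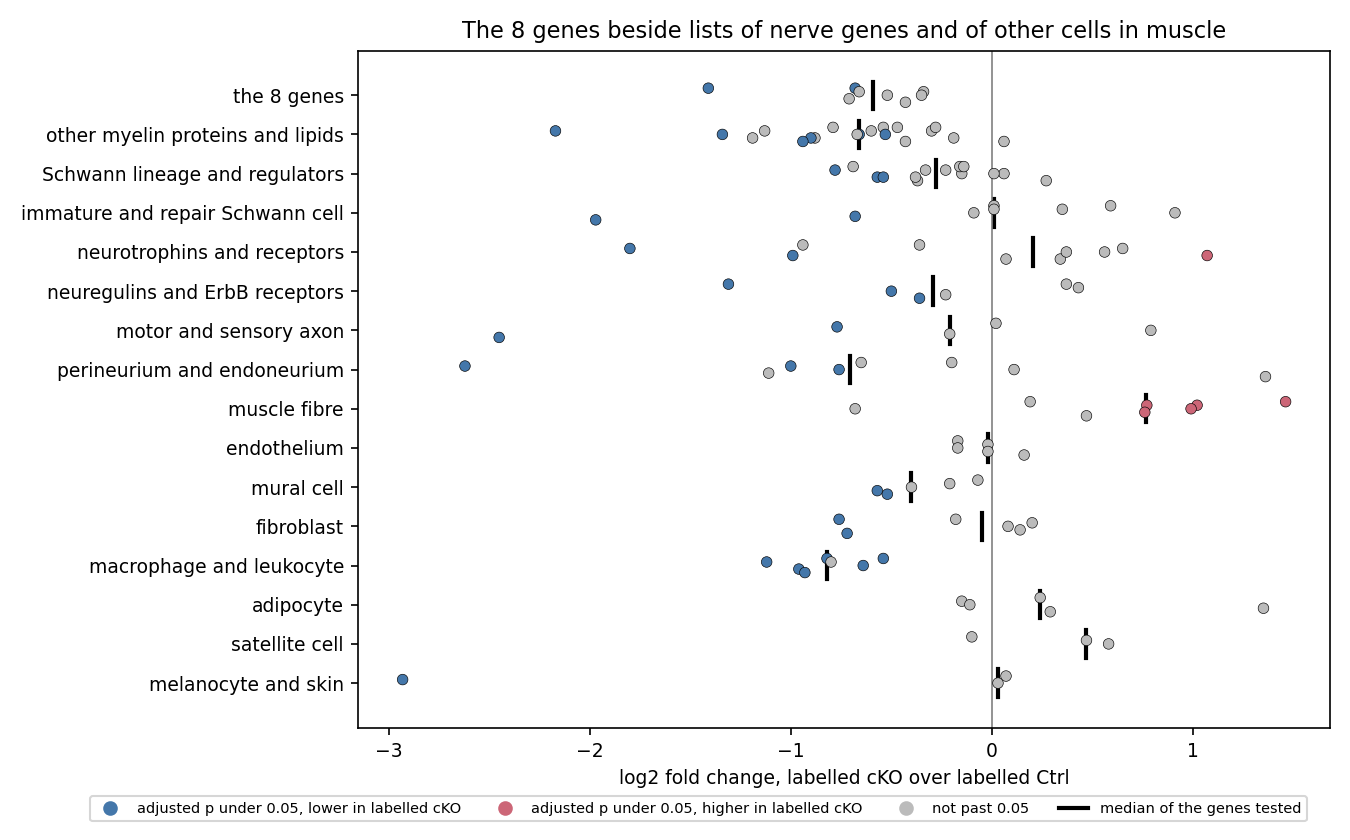
Each point is the log2 fold change, labelled cKO over labelled Ctrl, of 1 tested gene, in rows for the 8 genes, the 7 nerve lists and lists of other cells, with a bar at the median of each row. The bars of the 8 genes (-0.59), of other myelin genes (-0.66), of perineurium and endoneurium (-0.71) and of macrophages and leukocytes (-0.82) lie to the left of 0 and that of muscle fiber genes (0.76) to the right.

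Markers of other cells moved with the labels as well. Of 8 muscle fiber genes 5 were higher in the cKO-labelled libraries (Myh4, Atp2a1, Casq1, Ckm and Tnnt3), and the summed level of the list was 97700 to 126000 CPM in the Ctrl-labelled libraries and 173000 to 221000 CPM in the cKO-labelled ones. The 5 became 2 without Ctrl 2, cKO 1 or cKO 3, where 6.06%, 6.2% and 5.34% of all genes were higher. Mb, the myoglobin of oxidative fibers, went the other way at -0.68 (95% CI -1.28 to -0.09) and did not pass in edgeR (adjusted p = 0.0916), but was lower in the cKO-labelled libraries with total counts (adjusted p = 0.0419), in the DESeq2 Wald test (0.0199) and without Ctrl 3 (0.0427) or cKO 2 (0.0305). Atp2a1, Casq1, Ckm and Mb share exon bases with another annotated gene. Of 7 macrophage and leukocyte genes 6 were lower in the cKO-labelled libraries, with sums of 106 to 126 CPM against 57.8 to 77.5 CPM and a median of -0.82, with C1qa and C1qb past the threshold in all 6 fits that left out 1 library and a count between 2 and 7 over these fits (2 without Ctrl 2 or cKO 3, 3 without Ctrl 3 or cKO 1). So the summed fiber genes were higher and the summed leukocyte genes lower under the cKO label. Leukocytes and fibroblasts also express some of the 8 genes, and the part of these cells in the lower Pmp22 and Egr2 was not tested.

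Endothelial genes had 0 of 5 past the threshold in edgeR (also 0 in DESeq2 and at an unadjusted p under 0.05, and 1 lower with total counts or without cKO 2), with sums of 326 to 340 and 300 to 337 CPM and a median of -0.02 (-0.28 with total counts and -0.12 without cKO 2). Mural cell genes had 2 of 5 lower (Myh11 and Cspg4; 5 with total counts, 0 without Ctrl 1 or Ctrl 2 and 1 without cKO 1 or cKO 3) with sums of 412 to 427 and 329 to 354 CPM. Fibroblast genes had 2 of 6 lower (Lum and Thy1; 3 with total counts, 0 without Ctrl 2 and 1 without Ctrl 1, cKO 1 or cKO 3), with sums of 933 to 970 and 666 to 1450 CPM and a median of -0.05, which was -0.28 with total counts, -0.64 without cKO 2 and between -0.08 and 0.04 without any other library. Adipocyte genes (5 tested, sums of 188 to 218 and 185 to 227 CPM) and satellite cell genes (3 tested, sums of 3.88 to 4.10 and 3.64 to 6.0 CPM) had 0 past the threshold in edgeR, 0 in DESeq2 and 0 at an unadjusted p under 0.05, with 1 adipocyte gene higher without cKO 3.

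Myelin and SOX10 also belong to oligodendrocytes and melanocytes, and these were looked for. Opalin and Olig2 were at 0 in every library, and Mog had at most 4 counts and Mobp at most 1, so that 0 of 4 oligodendrocyte markers could be tested. Of 7 melanocyte and skin markers Tyr, Krt5 and Krt14 were at 0 in every library and 3 were tested. Dct was lower in the cKO-labelled libraries, with 2.04, 1.06 and 0.602 CPM against 0.169, 0.0779 and 0.227 CPM (log2 fold change -2.93, SE 0.58, adjusted p = 0.0131, edgeR), while Mitf (0.07) and Pmel (0.03), which shares exon bases with other genes, did not pass.

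The genes whose log2 CPM over the 6 libraries was most like the mean standardized profile of the 8 were Il18bp (Pearson r = 0.996), Etnk2 (0.992), Dusp15 (0.990), Apaf1 (0.989) and Ltbp3 (0.988). This is a description over 6 libraries that share their scaling, in which 51 genes that are no members had an r of at least 0.95. Each of the 5 was highest in Ctrl 3 and lowest in cKO 3, as the profile is, and none passed the test between the labelled groups (0 genes in edgeR, with adjusted p values from 0.0558 for Dusp15 to 0.361 for Etnk2).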

How the data were processed

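RNA from GP muscle of 6 mice was sequenced as paired-end mRNA libraries. The authors trimmed reads with Trimmomatic (version 0.39), aligned them to mm10 with HISAT2 (version 2.1.0), counted them per gene with featureCounts (version 1.6.2), and deposited raw counts, 1 table per mouse, without normalization. Read quality was checked with FastQC (version 0.11.8). The annotation and the use of strand in counting are not given in the sources used here. Groups were taken from the labels. Counts were tested in R (version 4.3.3) with edgeR (version 4.0.16; filterByExpr, TMM, glmQLFit and glmQLFTest, no covariate), with Benjamini-Hochberg adjustment over 14180 genes. Intervals and SEs come from the same fit, CPM uses TMM factors (0.865 to 1.113), and profiles used log2 CPM with a prior count of 2. For single values, exact permutation tests (two-sided) were used. Ratios to Sox10 used counts plus 0.5. Replicates within a labelled group differed by a chi-square per degree of freedom of 29.5 or more, so no library repeats another of its group. Both count tests were first tested on simulated data with known changes.

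The 8 genes, the 7 nerve lists and the 9 lists of other cells were chosen with earlier results of these data known, and lists were described by counts and medians with no test of their own. From each list, up to 6 genes with the smallest p among those passing and up to 3 of the highest mean CPM among the others could be named, as well as the 5 genes most like the members' profile. A gene that this rule selects is not reported here. Positions are from GENCODE M21 on GRCm38 (mm10) and promoter sequences from RefSeq on GRCm38.p6. As alternatives, the counts were scaled by DESeq2 size factors or by their totals, kept without a filter or with 10 counts or more in each library, and tested with the DESeq2 (version 1.42.0) Wald test, a robust fit, or a fit with a block for mouse number. Each library was also left out in turn, and ratios were taken with 1 count added.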

Additional observations from a re-analysis of the deposited data

How the results depend on the processing

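The log2 fold changes of the 8 genes were below 0 in all 104 alternative fits (13 per gene), and the calls of Pmp22 and Egr2 held in each. With total counts Mbp (-0.92), Prx (-0.77) and Mag (-0.98) passed too, the count of members lower in the cKO-labelled libraries was 5 and the median of the 7 nerve lists -0.62, since this scaling moves all genes down. The DESeq2 Wald test called 2 nerve-list genes higher in the cKO-labelled libraries. Deviations from the group mean correlated at 0.0835, -0.215 and -0.00201 over 14180 genes for mice with the same number. For mice with different numbers the correlations ran from -0.217 to 0.194. With 3 mice per group this check cannot tell whether mice with the same number shared a litter or a day. With that number as a replicate block, calls over all genes went from 3454 to 1899 and nerve-list genes lower in the cKO-labelled libraries from 21 to 8, while Pmp22 (adjusted p = 0.0334, edgeR) and Egr2 (0.0236) passed. Over the fits without 1 library, nerve-list genes numbered 6 to 18 lower and 1 to 3 higher, and the log2 ratio to Sox10 changed sign for Cdh19 (-0.18 to 0.28) and Ngfr (-0.37 to 0.23). The cause of these shifts was not tested. Mag, Egr2, Cdh19 and Ngfr had the lowest counts of the 8 genes, with 17 to 97 per library.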

Other observations

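Relatives of 3 members were looked up after the values were known. Of the EMP proteins, the closest relatives of Pmp22, Emp2 was lower in the cKO-labelled libraries, with 16.2, 13.5 and 12.8 CPM in the Ctrl-labelled ones and 10.5, 10.9 and 8.66 CPM in the cKO-labelled ones (log2 fold change -0.50, SE 0.13, adjusted p = 0.0357, edgeR). This call was lost without Ctrl 1, Ctrl 2, cKO 1 or cKO 3, with an adjusted p of up to 0.115. Emp1 (-0.73, 95% CI -1.36 to -0.11, adjusted p = 0.0844) and Emp3 (-0.43, 95% CI -0.82 to -0.04, adjusted p = 0.101) did not pass.

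Of the EGR factors beside Egr2, Egr3, which muscle spindles need, had 1.69, 3.02 and 1.86 CPM in the Ctrl-labelled libraries and 0.452, 1.09 and 1.45 CPM in the cKO-labelled ones. The groups did not overlap, and the log2 fold change of -1.12 (95% CI -2.10 to -0.13) did not pass (adjusted p = 0.0953, edgeR). Egr1, a widespread early response gene, had 23.7, 23.4 and 33.5 CPM and 14.1, 11.7 and 31.2 CPM, so that cKO 3 was as high as the Ctrl-labelled libraries (-0.50, 95% CI -1.35 to 0.35), and Egr4 had at most 1 count. Among the relatives of Sox10, Sox8 was at -0.23 (95% CI -0.80 to 0.35, adjusted p = 0.529) and Sox9 was at -2.62, as described among the sheath genes. Sox8 shares exon bases with an antisense gene. Differences between relatives were not tested.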
